A study of Homo sapiens with 6 samples.

Results

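The 8 genes described here, ACTB, GAPDH, TBP, YWHAZ, PPIA, GUSB, SDHA and TFRC, are widely used as reference genes, the transcripts against which a measured gene is set to correct for unequal amounts of RNA. They were chosen by gene name in the arrays' own annotation, which gave 25 probe sets of 45033, each a summary of 3 probes. YWHAZ had 7 probe sets, PPIA 6, GAPDH 3, TBP 3, ACTB 2, TFRC 2, GUSB 1 and SDHA 1. The study concerned SET8, a histone H4 lysine methyltransferase, and its part in switching on Wnt target genes. Its cells were HEK293, a line derived from human embryonic kidney, hybridised to 6 single-colour NimbleGen arrays. The 3 groups of 2 arrays were SET8 shRNA with Wnt3a conditioned medium, control shRNA with Wnt3a conditioned medium, and control shRNA with control conditioned medium. In each group the transfection ran for about 40 hours and the medium was on the cells for 7 hours. All groups thus carry a transfected RNA, which the sample titles call an siRNA and the sample descriptions an shRNA. A group given SET8 shRNA and control medium is not among those used here. Nothing in the labels says that the 2 arrays of a group came from separate cultures, so the tests measure the spread between these arrays, which may be technical.

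A reference gene is useful only where its transcript keeps the same level in every condition compared. The 8 genes work in different parts of the cell. ACTB encodes beta-actin of the cytoskeleton and GAPDH a glycolytic enzyme. PPIA encodes cyclophilin A, a prolyl isomerase that binds cyclosporin, and TBP the TATA-binding protein of the general transcription machinery. YWHAZ encodes 14-3-3 zeta, an adaptor that binds phosphorylated proteins as a dimer. GUSB is the lysosomal beta-glucuronidase, and SDHA is the flavoprotein subunit of succinate dehydrogenase, an enzyme shared by the citric acid cycle and the respiratory chain. TFRC is the transferrin receptor, which brings iron into the cell, and its mRNA is stabilised by iron regulatory proteins when iron is scarce.

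Array medians lay between 7.63 and 7.79 log2 intensity, and replicate arrays correlated at 0.972 to 0.985 over all probe sets. KMT5A, the gene of SET8 (SETD8 in the array annotation), read 8.97 and 9.65 with SET8 shRNA, 11.20 and 10.53 with control shRNA in Wnt3a medium, and 11.03 and 10.75 in control medium on its brighter probe set. Both SET8 arrays were the lowest. Of 7 markers listed for HEK293, 6 were above the array median on all 6 arrays, among them KRT8, VIM and NEFL, while PAX2 was above it on 2. Of 5 fibroblast markers 1 and of 5 blood cell markers 1 were above the median on every array, and LUM, PTPRC and HBB were above it on none, as was the brightest COL1A2 probe set. Among the blood cell markers CD68 was above it on 6 arrays, HBA1 on 5 and HBA2 on 4. Among the fibroblast markers COL3A1 was above it on 2 and DCN on 1. Summed intensity over the fibroblast markers was 4896 and 4482 with SET8 shRNA, 6990 and 6089 in Wnt3a medium, and 6010 and 5672 in control medium, and most of it came from COL1A1. COL1A2 and COL3A1 went the other way between the media. COL1A2 read 5.29 and 6.28 in Wnt3a medium and 8.28 and 7.87 in control medium on the probe set tested, a difference of -2.29. COL3A1 read 7.37 and 7.62 in Wnt3a medium and 8.45 and 8.24 in control medium, a difference of -0.85. Both were past an unadjusted limma p of 0.05, where 2.14% of all probe sets lay in either direction, and neither was called after adjustment. Both exceeded the array median in control medium and not in Wnt3a medium. The filter for testing thus favoured this direction, and these p-values are no support for it. DCN averaged 5.41 in Wnt3a medium and 7.49 in control medium and was too dim to test. The part of these genes' signal in the members' differences between the media was not tested.

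YWHAZ had a higher signal with SET8 shRNA than in either control shRNA group, on each of its 7 probe sets. On the brightest (BC072426, chromosome 8, 102000089 to 102033428, hg18) log2 intensity was 11.64 and 12.20 with SET8 shRNA, 10.65 and 10.74 with control shRNA in Wnt3a medium, and 10.94 and 10.65 with control shRNA in control medium. Both SET8 arrays stood above all 4 control shRNA arrays, which overlapped each other. The means were 11.92 ± 0.39, 10.69 ± 0.06 and 10.79 ± 0.21 (SD, n = 2 each). SET8 minus control shRNA in Wnt3a medium came to 1.23 (SE 0.27), or 2.34-fold, with a 95% interval of 0.59 to 1.86 that is not adjusted for the number of probe sets. Its limma adjusted p after Benjamini-Hochberg adjustment over 23808 probe sets was 0.25, so the difference was not called.

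The other YWHAZ probe sets gave a like picture at different levels. BC108281, the most closely replicated, read 11.43 and 11.40 with SET8 shRNA, 10.34 and 10.52 with control shRNA in Wnt3a medium, and 10.47 and 10.43 in control medium. BC101483, the most spread, read 10.30 and 10.80 with SET8 shRNA, 9.71 and 8.64 in Wnt3a medium, and 9.72 and 8.53 in control medium. Its replicate arrays with control shRNA thus lay further apart than 92.8% and 96.1% of the probe sets tested in those groups, and its SET8 arrays were still the highest of the 6. Over the 7 probe sets the difference between the shRNAs ran from 0.98 to 1.38, that is 1.97-fold to 2.61-fold, with limma adjusted p-values of 0.20 to 0.59. All 7 were past an unadjusted p of 0.05 on the higher side, where 3.76% of all probe sets lay. In all 7 the SET8 arrays did not overlap the Wnt3a arrays, which was so on the higher side for 17.1% of all probe sets. The 7 probe sets measure the same transcripts and may share probes, so they are not 7 separate observations. The summed intensity of the 5 blood cell markers was 937 and 1035 with SET8 shRNA, 2250 and 2395 in Wnt3a medium, and 1859 and 2475 in control medium, the lowest with SET8 shRNA. Of these markers 3 were bright enough to test, and their median difference between the shRNAs was -1.12. All 3 were lower at an unadjusted limma p under 0.05, where 3.41% of all probe sets lay, and none was called. HBA2 averaged 7.61 with SET8 shRNA, below the array medians of 7.75 and 7.79, and 8.73 in each control shRNA group. The filter for testing thus favoured a lower value with SET8 shRNA for HBA2, and the count of 3 is no support. The part of blood and fibroblast marker signal in the YWHAZ difference was not tested.

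Between the media no YWHAZ probe set passed an unadjusted p of 0.05. The differences of Wnt3a from control medium ran from -0.20 to 0.13 over the 7 probe sets, and the interval on the brightest was -0.74 to 0.54. On BC083508 the Wnt3a arrays, at 10.76 and 10.51, lay below the control medium arrays, at 10.84 and 10.81. Such a lack of overlap on the lower side was found in 9.15% of all probe sets. The comparison of SET8 shRNA and Wnt3a medium with the group given neither reuses the same SET8 arrays, and its differences were 0.96 to 1.45 with limma adjusted p-values of 0.10 to 0.35. By replicate number, the brightest probe set was 0.99 higher between the SET8 and Wnt3a arrays numbered 1 and 1.46 between those numbered 2.

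**Figure D1:**
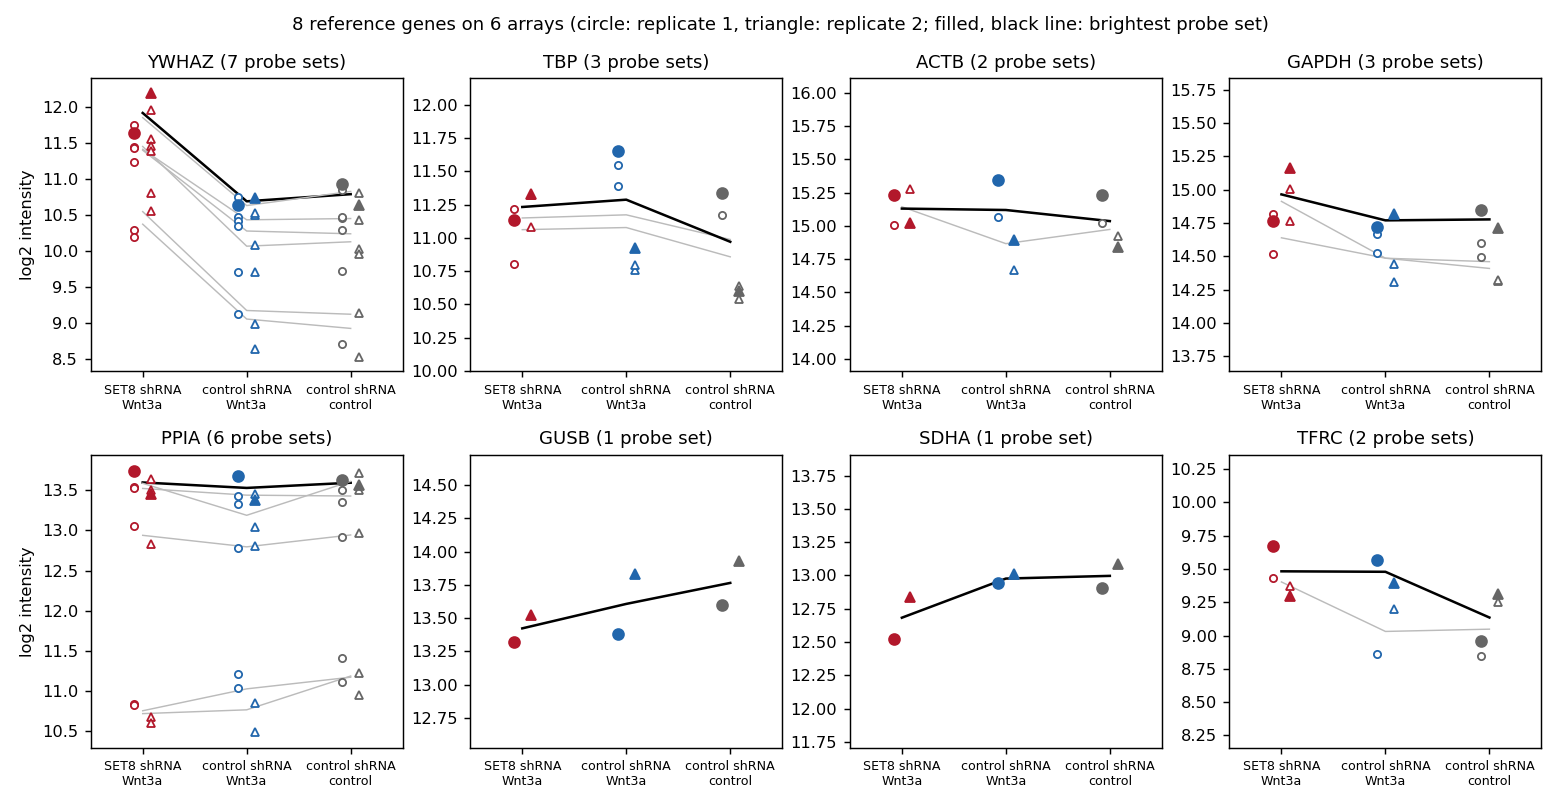
Log2 intensity (vertical axes, whose ranges differ between panels) of every probe set of the 8 genes in the 3 groups (horizontal axis), with replicate 1 as circles and replicate 2 as triangles, the brightest probe set filled and joined by a black line through the group means, and the others open with grey lines. YWHAZ stood higher with SET8 shRNA on all 7 probe sets, while in TBP the circles lay above the triangles in both control shRNA groups.

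ACTB, GAPDH and PPIA had no call in any comparison. On the brightest ACTB probe set (NM_001101, chromosome 7, 5533311 to 5536747) the arrays read 15.24 and 15.02 with SET8 shRNA, 15.35 and 14.89 in Wnt3a medium, and 15.23 and 14.84 in control medium. The groups overlapped, and replicate 1 was the higher array in each. The difference between the shRNAs was 0.01 (interval -0.63 to 0.65) and that of Wnt3a from control medium 0.08 (interval -0.55 to 0.72). ACTB lay 0.31 to 0.75 below the highest value of each array, near the top of the range. Whether the signal was saturated there was not tested. The further ACTB probe set had a difference between the shRNAs of 0.28.

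GAPDH read 14.77 and 15.16 with SET8 shRNA, 14.72 and 14.82 in Wnt3a medium, and 14.84 and 14.71 in control medium on its brightest probe set (BC009081, chromosome 12, 6513958 to 6517797). The highest value came from SET8 array 2, which was also the highest on both further probe sets. The difference between the shRNAs was 0.19 (interval -0.38 to 0.77), and the 3 probe sets ran from 0.15 to 0.43. On BC001601, which had the 0.43, the SET8 arrays at 14.82 and 15.01 did not overlap the Wnt3a arrays at 14.53 and 14.44, with an unadjusted limma p of 0.11. Such a lack of overlap on the higher side was found in 17.1% of all probe sets. For Wnt3a against control medium the 3 probe sets ran from -0.01 to 0.08. The brightest GAPDH probe set lay 0.61 to 0.93 below the highest value of each array, and saturation was not tested there either.

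Over all 6 arrays PPIA had the lowest SD of the brightest probe sets, while within groups SDHA, at 0.15, was below PPIA, at 0.17. BC000689 (chromosome 7, 44802826 to 44807747) read 13.54 and 13.50 with SET8 shRNA, 13.42 and 13.45 in Wnt3a medium, and 13.35 and 13.51 in control medium. Its values covered 0.19 log2 units in all, or 1.14-fold, and 0.546% of the probe sets tested had a lower SD over the 6 arrays. The brightest PPIA probe set (BC007104) differed by 0.07 between the shRNAs (interval -0.50 to 0.64) and by -0.06 between the media (interval -0.63 to 0.50). The 6 PPIA probe sets did not behave alike. NM_021130, whose transcript reaches furthest at both ends, read 10.83 and 10.61 with SET8 shRNA, 11.04 and 10.50 in Wnt3a medium, and 11.42 and 10.96 in control medium, a range of 1.89-fold. BC073992 was lower in Wnt3a medium, at 13.33 and 13.04, than with SET8 shRNA, at 13.53 and 13.64, or in control medium, at 13.51 and 13.71. That is a difference of -0.42 between the media with an unadjusted limma p of 0.12, and on the lower side 9.15% of all probe sets had groups that did not overlap. Pseudogenes named after PPIA number 87 in the RefSeq gene table, after GAPDH 65, after GUSB 19, after ACTB 14, after YWHAZ 10 and after SDHA 4. Whether any of the probes also bind such copies was not tested.

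TBP was set apart by its replicates rather than by its groups. On the brightest probe set (X54993, chromosome 6, 170707944 to 170723862) the arrays read 11.14 and 11.33 with SET8 shRNA, 11.65 and 10.92 in Wnt3a medium, and 11.34 and 10.60 in control medium. Replicate 1 exceeded replicate 2 by 0.73 in Wnt3a medium and by 0.74 in control medium, gaps larger than those of 80.4% and 84.3% of the probe sets tested. All 3 TBP probe sets showed this, with gaps of 0.63 to 0.75 in Wnt3a medium and 0.63 to 0.74 in control medium. With SET8 shRNA the gap was -0.52, 0.14 and -0.19 on the 3 probe sets, with no shared direction. Within numbers, Wnt3a minus control medium was 0.31 for the arrays numbered 1 and 0.32 for those numbered 2, on a difference of 0.32 (SE 0.35) in the fit that ignores the numbers. SET8 minus control shRNA was -0.51 for the arrays numbered 1 and 0.40 for those numbered 2, around a mean of -0.05 (interval -0.88 to 0.77), so a difference of up to those bounds was not resolved. Such a pattern was not limited to TBP: over all probe sets tested, the gap between replicates correlated at 0.75 between the control shRNA groups and at -0.29 between SET8 shRNA and each of them.

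GUSB had the opposite replicate pattern, on its single probe set (NM_000181, chromosome 7, 65063109 to 65084631). It read 13.32 and 13.53 with SET8 shRNA, 13.38 and 13.83 in Wnt3a medium, and 13.60 and 13.93 in control medium, with replicate 2 the higher in every group. The difference was -0.18 between the shRNAs (interval -0.81 to 0.44) and -0.16 between the media (interval -0.78 to 0.47). SDHA, also on a single probe set (NM_004168, chromosome 5, 271446 to 309792), read 12.52 and 12.84 with SET8 shRNA, 12.94 and 13.01 in Wnt3a medium, and 12.91 and 13.09 in control medium. Its SET8 arrays were the lowest of the 6, at a difference of -0.29 between the shRNAs (interval -0.85 to 0.26, limma adjusted p = 0.92), and on the lower side the groups of 17% of all probe sets did not overlap. The media differed by -0.02 (interval -0.58 to 0.54).

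TFRC had no call, and its probe sets differed in where they departed from the other arrays. BC001188 (chromosome 3, 197260552 to 197293343) read 9.67 and 9.29 with SET8 shRNA, 9.57 and 9.39 in Wnt3a medium, and 8.96 and 9.31 in control medium. NM_003234 read 9.43 and 9.38 with SET8 shRNA, 8.86 and 9.20 in Wnt3a medium, and 8.85 and 9.25 in control medium. On BC001188 the Wnt3a arrays lay above the control medium arrays, by 0.34 (interval -0.26 to 0.95), where 12% of all probe sets did not overlap on the higher side, and the shRNAs differed by 0.004. On NM_003234 the media differed by -0.02 and the shRNAs by 0.37.

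Across the 25 probe sets, all bright enough to test, none passed a limma adjusted p of 0.05 in any comparison. Of all probe sets, 0% passed between the shRNAs, 0% between the media and 0.0504% in the comparison of SET8 shRNA and Wnt3a medium with control shRNA and control medium. At an unadjusted limma p under 0.05, in either direction, 7 of the 25 passed between the shRNAs, all of them YWHAZ, against 7.16% of all probe sets. None of the 25 passed between the media, against 2.14%, and the same 7 YWHAZ probe sets passed in the third comparison, against 10.6%. Between the shRNAs the SET8 arrays did not overlap the Wnt3a arrays on the higher side for 12 of the 25 (7 of YWHAZ, 3 of PPIA, 1 of GAPDH and 1 of TFRC), against 17.1% of all, and on the lower side for 2 (1 of PPIA and 1 of SDHA), against 17%. Probe sets of the same gene are not separate observations. Counted on the brightest probe set of each of the 8 genes, 1 lay on the higher side and 1 on the lower. By that count 1 of 8 passed the unadjusted limma p of 0.05 between the shRNAs. A limma F test of any difference among the 3 groups had 0 of 25 past an adjusted p of 0.05, against 0% of all, and 7 past an unadjusted p of 0.05, against 7.63%. The smallest F test p among members belonged to YWHAZ NM_003406 (0.0014, adjusted 0.19), and the largest among brightest probe sets to PPIA (0.95). For the brightest probe set of each gene, the median difference between the shRNAs was 0.01, where that of all probe sets was 0.01, and between the media it was -0.01, where that of all was 0.02.

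**Figure D2:**
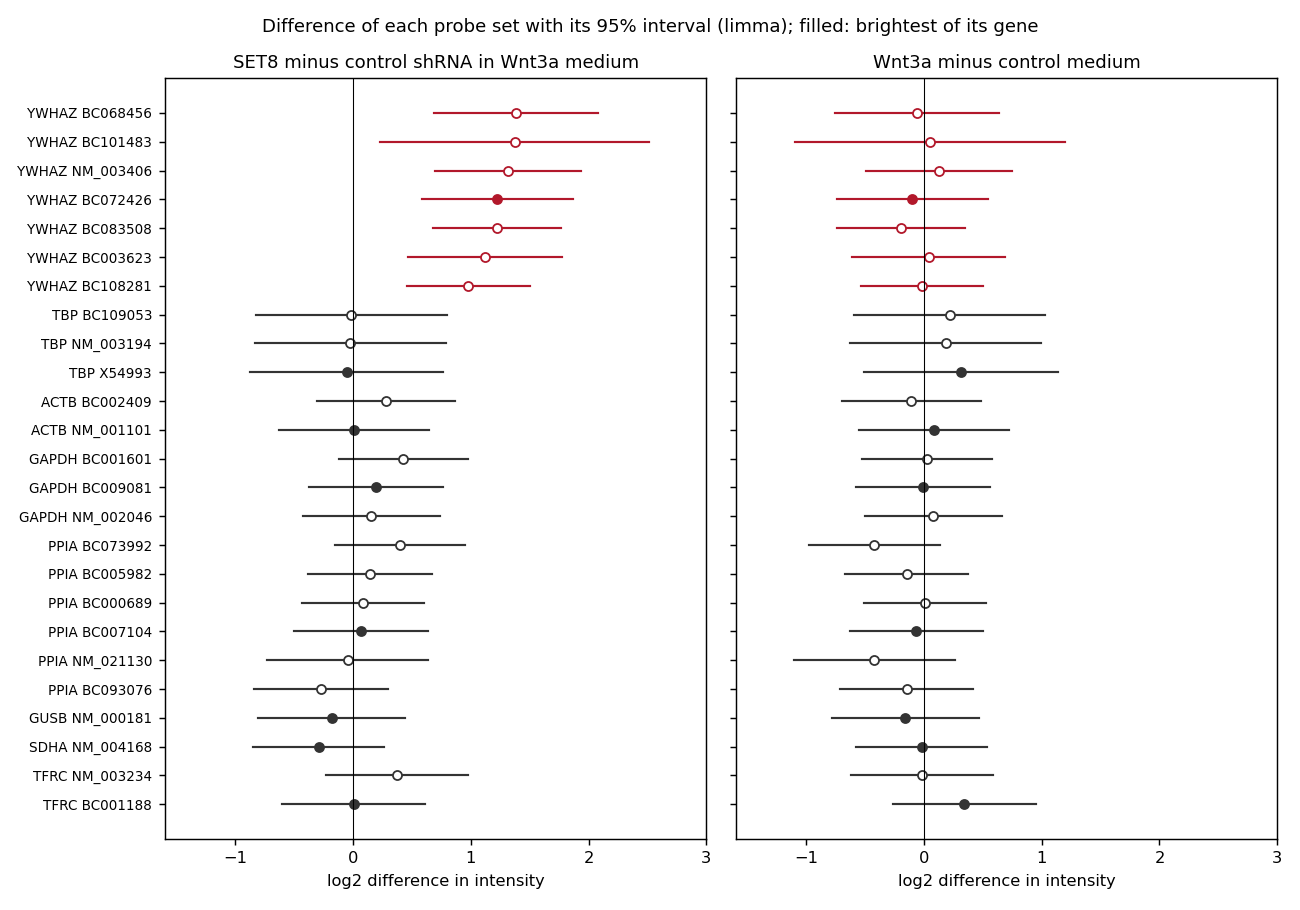
Log2 difference (horizontal axis) of the 25 probe sets (rows) for SET8 minus control shRNA in Wnt3a medium on the left and Wnt3a minus control medium on the right, with 95% intervals from limma and the brightest probe set of each gene filled. The intervals of the 7 YWHAZ probe sets lay above 0 on the left, and every other interval shown included 0.

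The spread between arrays was set against that of all probe sets tested. The pooled SD within groups was below the median of all probe sets tested, 0.27, for 19 of the 25 probe sets and for 7 of the 8 brightest. The exception among the brightest was TBP, at 0.43, which exceeded 78.2% of the probe sets tested. Over all 6 arrays the SD of the brightest probe sets was 0.14 for PPIA, 0.17 for GAPDH, 0.20 for SDHA, 0.20 for ACTB, 0.24 for GUSB, 0.25 for TFRC, 0.37 for TBP and 0.64 for YWHAZ. The median over all probe sets tested was 0.29. YWHAZ exceeded 94% of the probe sets tested, and its 7 probe sets exceeded 85.8% to 98.7%. In the 4 control shRNA arrays alone the SD of the brightest YWHAZ probe set was 0.14, above that of 17.1% of the probe sets tested. That of the brightest TBP probe set was 0.46, above 82.0%. Other YWHAZ probe sets spread differently on these arrays. BC101483 read 9.71 and 8.64 in Wnt3a medium and 9.72 and 8.53 in control medium, and BC108281 read 10.34 and 10.52, and 10.47 and 10.43. The order of the members therefore differed with the arrays included, and it is a description with no test.

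**Figure D3:**
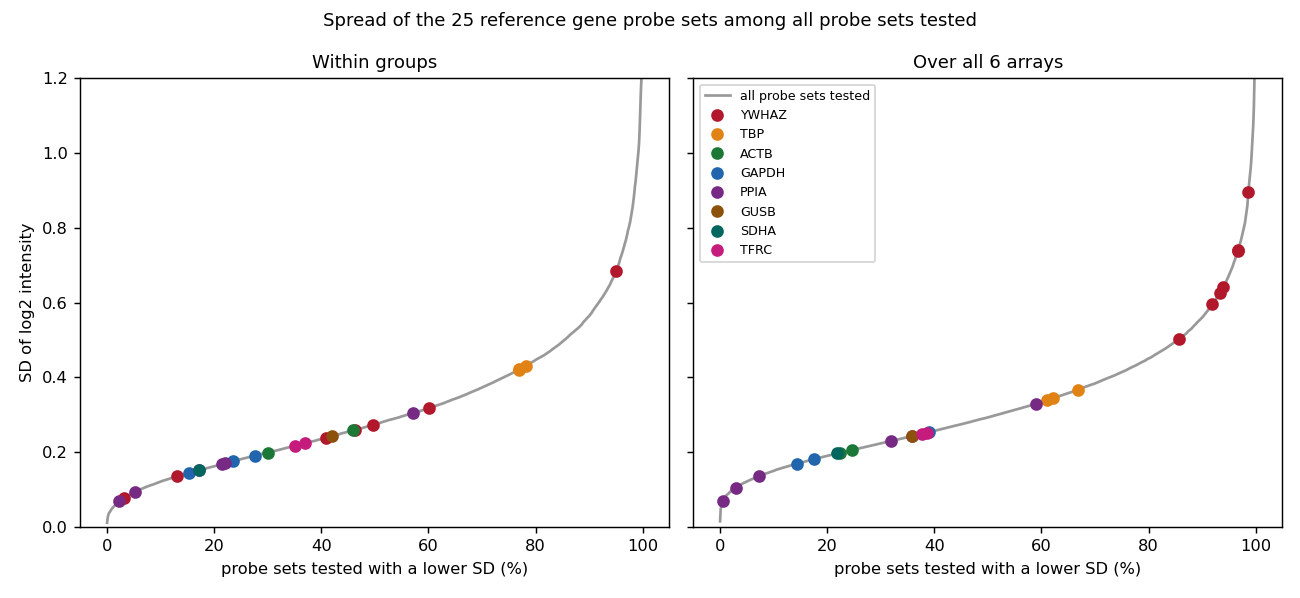
SD of log2 intensity (vertical axis) against the share of probe sets tested that had a lower SD (horizontal axis), within groups on the left and over all 6 arrays on the right, with a grey curve for all probe sets tested and coloured points for the 25 probe sets of the 8 genes. YWHAZ lay among the low and middle values within groups apart from 1 probe set, and above 85.8% of probe sets over the 6 arrays.

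Because a relative measurement uses ratios, the spread of the log2 ratio over the 6 arrays was computed for the 28 pairs of brightest probe sets. The 7 pairs that hold YWHAZ had SDs of 0.51 to 0.79, and the 21 others 0.13 to 0.58. ACTB and PPIA kept the most even ratio, with an SD of 0.13 and a range of 0.39, and GUSB and SDHA came next at 0.15. The mean SD of a gene's ratios to the 7 others was 0.33 for PPIA, 0.34 for GAPDH, 0.34 for ACTB, 0.39 for SDHA, 0.39 for TFRC, 0.43 for GUSB, 0.44 for TBP and 0.68 for YWHAZ. When the gene with the highest mean was removed step by step, YWHAZ left first, then TBP, TFRC, GUSB, SDHA and GAPDH, with ACTB and PPIA remaining. In the 4 control shRNA arrays alone, GAPDH had the lowest mean at 0.24 and TBP the highest at 0.47, and YWHAZ had 0.26, between SDHA and ACTB. The ranking on these 4 arrays was chosen after seeing the data, and all of these ratios rest on 1 probe set per gene.

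**Figure D4:**
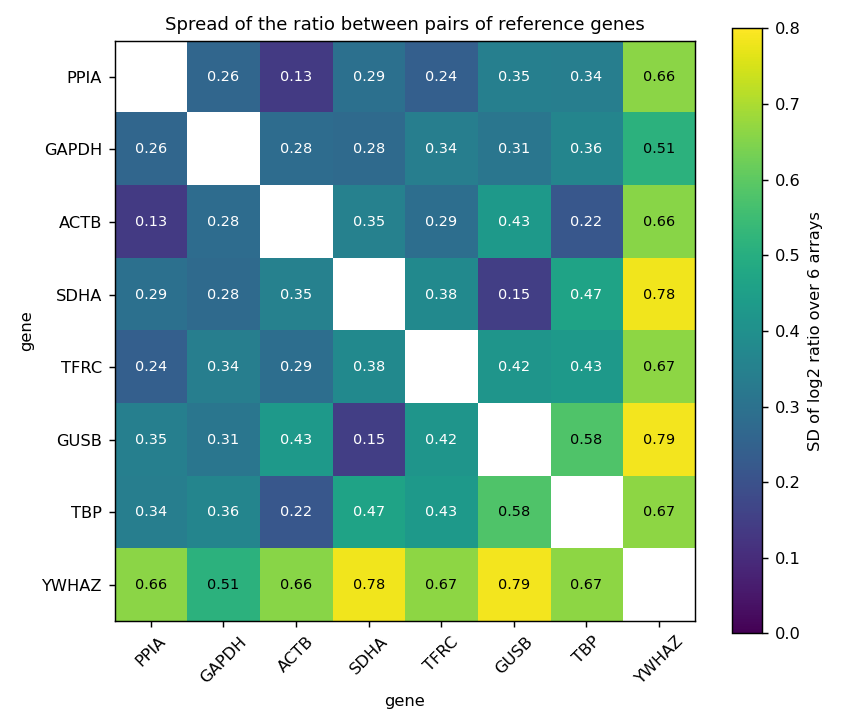
SD of the log2 ratio over 6 arrays, as colour and printed value, for each pair of the 8 genes on their brightest probe sets, with genes ordered from the lowest to the highest mean. Pairs with YWHAZ, in the last row and column, reached 0.51 to 0.79, and ACTB with PPIA had 0.13.

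The profiles of the brightest probe sets over the 6 arrays fell into opposite patterns. They are given here as a description, on 1 probe set per gene, over 6 arrays that share their normalisation. ACTB correlated with TBP at 0.86 and with PPIA at 0.76, and with GUSB at -0.88. GUSB correlated with SDHA at 0.79 and with TBP at -0.80. GAPDH correlated with YWHAZ at 0.81, and YWHAZ with SDHA at -0.65. The further ACTB probe set read 15.01 and 15.28 with SET8 shRNA, where the brightest read 15.24 and 15.02. How far the correlations depend on the probe set was not tested. Among 11896 other genes, the profiles most like YWHAZ were those of NOLC1 (0.996) and MAFF (0.991). They were MRPS22 and RASL10B for ACTB, PTPN13 and AUH for GAPDH, CCNK for TBP, MIF and NFAM1 for PPIA, DPH1 and MB21D2 for GUSB, MFF and TOMM20 for SDHA, and TMEM74B and UNC119 for TFRC, all with correlations of 0.976 to 0.996. With 6 arrays such values are common, and 601 genes reached 0.9 with TBP and 30 with TFRC.

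The other 14-3-3 genes were read as the family of YWHAZ. Of the 6 other 14-3-3 genes, all tested, 0 were higher and 1 was lower between the shRNAs at an unadjusted limma p under 0.05, against 3.76% and 3.41% of all probe sets, with a median difference of -0.24. The lower member was YWHAQ, 14-3-3 theta, which read 11.70 and 12.10 with SET8 shRNA, 12.77 and 12.58 in Wnt3a medium, and 12.69 and 12.59 in control medium. Its difference was -0.78 (SE 0.25, limma adjusted p = 0.48), and its 5 probe sets ran from -0.78 to -0.34. YWHAB was at 0.11, YWHAE at 0.18, SFN at -0.11, YWHAG at -0.38 and YWHAH at -0.41, none past that p.

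Partners and relatives of the other members were mostly within the spread. Of 6 tested genes for succinate dehydrogenase subunits and assembly beside SDHA, none passed an unadjusted limma p of 0.05 between the shRNAs. The smallest p belonged to SDHAF1, an assembly factor, at -0.29, and SDHB was at 0.15, SDHC at -0.25 and SDHD at 0.14. Of 7 tested genes of iron uptake and storage none passed, with the ferritin light chain gene FTL at -0.44. Of 6 cyclophilin genes none passed, with PPIC at -0.60, and of 12 TFIID and related genes none passed, with TAF5 at 0.71. Of 9 tested genes for lysosomal enzymes beside GUSB none passed, with GALNS, a sulfatase, at 0.41. Of 4 tested actin genes beside ACTB, 1 was lower: ACTA2, smooth muscle actin, at -0.67 (SE 0.24), where 3.41% of all probe sets were lower, while ACTG1, the other cytoplasmic actin, was at 0.22. Between the media, none of these genes passed.

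Further reference genes served as a wider setting. Of 30 other classical reference genes, 29 were tested, and between the shRNAs 1 was higher and 0 lower at an unadjusted limma p under 0.05, a share near the 3.76% and 3.41% of all probe sets. It was HPRT1, a purine salvage enzyme, which read 10.64 and 11.13 with SET8 shRNA, 8.39 and 8.74 in Wnt3a medium, and 8.57 and 8.86 in control medium. Its difference was 2.33 (SE 0.28, limma adjusted p = 0.089), and the groups with SET8 and control shRNA did not overlap. In Wnt3a medium that was so on the higher side for 17.1% of all probe sets. No probe set tested had a smaller adjusted p between the shRNAs. The list's median absolute difference was 0.17 between the shRNAs and 0.07 between the media, where that of all probe sets was 0.22 and 0.15. Of 11 genes proposed as constitutive from RNA-seq surveys, 10 were tested and none passed in either comparison, with median absolute differences of 0.10 and 0.06. Of these the smallest p between the shRNAs belonged to VCP, a ubiquitin-dependent segregase, at -0.32.

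The choice of reference gene set the size of the KMT5A difference when that gene was expressed relative to each member. The deposited values gave KMT5A as 2.94-fold lower with SET8 shRNA in Wnt3a medium on the brighter probe set (AY064546, a difference of -1.56) and 2.16-fold lower on the other (NM_020382, -1.11). Relative to SDHA these were 2.40-fold and 1.76-fold lower, relative to ACTB 2.96-fold and 2.18-fold, and relative to YWHAZ 6.88-fold and 5.05-fold. By construction each value is the KMT5A difference less that of the reference gene, so YWHAZ adds its own 1.23 to the size. The remaining members lay between SDHA and GAPDH, and GAPDH gave 3.37-fold and 2.47-fold lower, and the mean of all 8 gave 3.20-fold and 2.35-fold. Each SET8 array was also taken alone, minus the Wnt3a mean, over the 7 members other than YWHAZ. On AY064546 the difference ran from -2.11 to -1.44 for SET8 array 1 and from -1.61 to -1.03 for SET8 array 2. With YWHAZ it was -2.84 and -2.72. On NM_020382 it ran from -0.98 to -0.31 for SET8 array 1 and from -1.85 to -1.27 for SET8 array 2 over those 7 members. The size thus depended on the array, and the KMT5A probe sets differed in which SET8 array gave the larger difference. All of these differences were below 0. No p-value is given for these ratios, since the reference gene's own difference and noise enter every probe set alike. The share of all probe sets past an adjusted p of 0.05 was 82.3% with YWHAZ subtracted, 0.244% with TFRC, 0.147% with GAPDH, and 0% with each other member and with the mean of the 8. With YWHAZ subtracted the median difference of all probe sets was -1.22. The 82.3% thus restates the uncalled difference of YWHAZ itself and is no result about the other genes. Between the media the brightest probe sets of the members differed by -0.16 to 0.34.

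**Figure D5:**
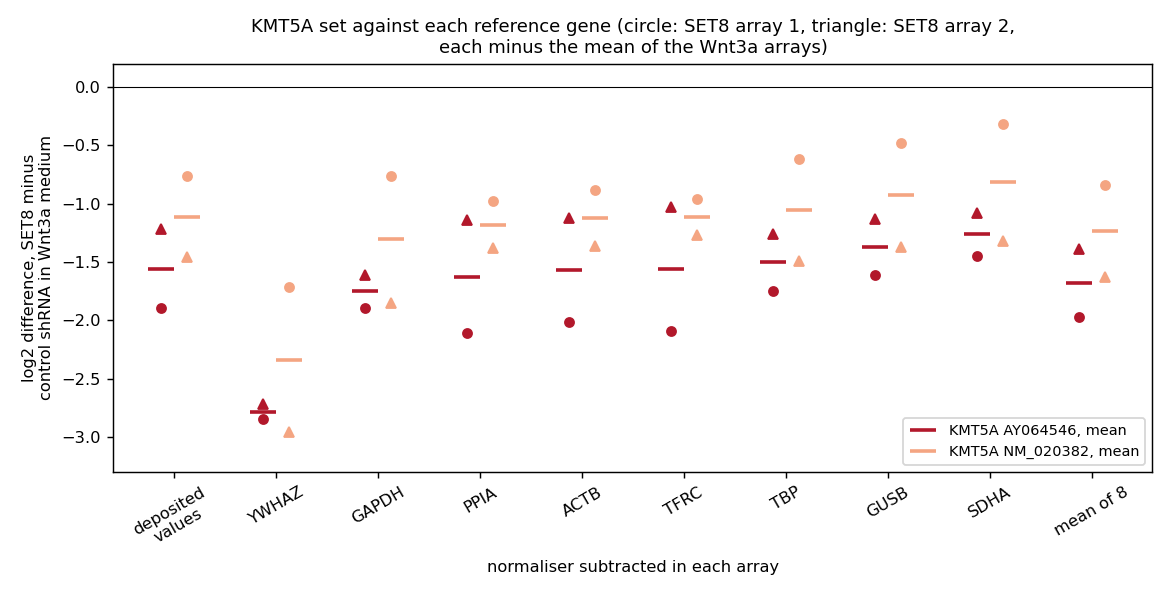
Log2 difference of KMT5A between SET8 and control shRNA in Wnt3a medium (vertical axis) as deposited, after subtracting each reference gene in each array, and after subtracting their mean (horizontal axis), for both KMT5A probe sets, with a bar for the mean, a circle for SET8 array 1 and a triangle for SET8 array 2. The mean on AY064546 was -1.56 as deposited, -1.26 relative to SDHA and -2.78 relative to YWHAZ.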

How the data were processed

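For every array the authors deposited linear intensity values by probe set, and RMA is named in the submitters' processing notes, without the settings. A series table repeats these values exactly, and positions refer to hg18 per the file headers. Log2 of these values was used, with nothing added. Symbols were updated by Entrez ID through a RefSeq gene table, which matched 38916 probe sets.

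A probe set was tested where it exceeded the array median on at least 2 arrays, which held for 23808 of 45033. Limma 3.58.1 in R 4.3.3 fitted the 3 groups to all 6 arrays (3 residual and 4.32 prior degrees of freedom), with Benjamini-Hochberg adjustment over all probe sets tested and calls at 0.05. The fit was tested on simulated data. An exact permutation test of 2 against 2 arrays cannot go below p = 0.333, so none is given. SDs printed after ± are of the 2 arrays of a group, and other SDs are of the arrays named with them. The main probe set of a gene was the brightest by mean. Replicate numbers come from the titles.

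The members, lists, tests and named genes were chosen with earlier results of these data known. The named genes were the 8 members, KMT5A, list members past an unadjusted p of 0.05 or else the smallest p, and the 2 genes most correlated with each member, of which 1 for TBP is not reported here. Direct partners of a member were also given. Alternatives were other filters, an intensity trend, fewer arrays, a replicate block and other scalings.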

Additional observations from a re-analysis of the deposited data

How the results depend on the processing

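Of 29 single differences, recomputed under 15 alternatives each, 398 of 435 values kept their direction and side of the threshold, 8 passed it newly and 29 changed sign; none was called in the main setting. YWHAZ stayed above 0 in 105 of 105 values between the shRNAs (0.84 to 1.91, limma adjusted p from 0.046 upwards) and in 105 of 105 against control medium (0.79 to 2.02). These counts are 7 probe sets of 1 gene under 15 alternatives, and their direction was largely fixed in advance. Filters, the trend and the replicate block leave a difference as it is. Leaving out 1 array cannot reverse groups that do not overlap. The replicate block could move no difference, whatever the data, since each group held 1 array of each number. With it YWHAZ kept its 1.23 on the brightest probe set (limma adjusted p 0.33), and no call changed. The gap between replicates correlated at 0.75 between the control shRNA groups and at -0.29 with SET8 shRNA, so the numbers are not shown to pair the arrays. With the numbers of the SET8 arrays exchanged, chosen after seeing the data, 1 member probe set was called between the shRNAs (182 of all), 7 against control medium (792 of all) and 4 by the F test (352 of all), against 0 in each as reported. Relative to YWHAZ the KMT5A difference was -2.78, by construction the deposited difference less that of YWHAZ.

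Small differences changed sign. Between the shRNAs, TFRC was -0.011 after quantile normalisation, -0.016 with array medians centred and -0.12 with the mean of the 8 members centred. Under that last centring PPIA was -0.053 and ACTB -0.11; ACTB was -0.0093 with medians centred. GAPDH was 0.0050 between the media after quantile normalisation. Leaving out 1 array at a time gave, between the shRNAs, ACTB -0.22 to 0.24, GAPDH -0.0038 to 0.39, GUSB -0.41 to 0.040, PPIA -0.079 to 0.22, TBP -0.42 to 0.31 and TFRC -0.18 to 0.19. Between the media it gave ACTB -0.14 to 0.31, GAPDH -0.075 to 0.060, GUSB -0.38 to 0.066, PPIA -0.21 to 0.082, SDHA -0.11 to 0.071, TBP -0.053 to 0.69 and YWHAZ -0.24 to 0.046. The cause was not tested. A lone array was assumed to vary like the others. With 2 arrays a group, intervals of about 0.6 on either side limit what could be seen.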
